A study of Mus musculus with 4 samples.

Results

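The 10 Wnt pathway feedback and effector genes described here are Axin2, Lef1, Tcf7l1, Tcf7l2, Nkd1, Sp5, Ctnnb1, Sfrp1, Sfrp2 and Dkk3, and they were found as the non-control probes that carry these gene names on the arrays. The names matched 15 of 55681 probes, and 12 of the 15 passed the filter on dim probes. Of the 10 genes, 9 were tested among 20231 genes, and Sp5 was not, because its probe was not well above background in either channel on any array. The samples were neural stem/progenitor cells (NSPCs) from mouse embryos at embryonic day 13.5, grown as neurospheres with EGF and FGF-basic; the labels give the strain as Slc:ICR for both genotypes, and the study's methods trace the Trp53 knockout to heterozygous mice from the RIKEN BioResource Center. The study compared NSPCs given 20 µM PJ34, an inhibitor of poly(ADP-ribose) polymerases (PARPs), with untreated NSPCs, in wild-type cells and in Trp53-/- cells, which are homozygous for a knockout of the p53 gene; the length of exposure is not given in the sources used here. Each of the 4 two-colour arrays held PJ34-treated RNA in Cy5 and untreated RNA in Cy3, with 2 arrays for wild-type and 2 for Trp53-/- cells and 0 dye swaps, so that in every ratio the dye and PJ34 cannot be told apart.

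In canonical Wnt signalling, a ligand outside the cell stops the Axin complex from destroying beta-catenin, which then enters the nucleus and works with TCF/LEF factors on target genes. Several targets feed back on the pathway: Axin2 rebuilds the destruction complex, Nkd1 acts on Dishevelled, and Sp5 is a transcription factor that dampens the same targets. In the embryonic forebrain, Wnt signalling is known for its part in progenitor expansion and in dorsal patterning.

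Before the values, 4 facts about the arrays bear on them. Between 21508 and 24540 probes in the untreated channel and between 26085 and 27159 in the PJ34 channel were well above background. The Trp53 probe read 8.28 and 8.49 on the log2 intensity scale in untreated wild-type cells and 7.56 and 7.83 in untreated Trp53-/- cells, lower in both but not absent, and whether that probe lies in the deleted part of the gene is not given in the sources used here. On Trp53-/- replicate 2, the PJ34 channel and the untreated channel did not match in sex: the log2 ratio of the Y-linked gene Eif2s3y was 4.22 there and -0.20 on Trp53-/- replicate 1. The values of the members are therefore given for each Trp53-/- array, and member results that were lost without replicate 2 are named. Counts of cell type markers in Trp53-/- cells include that array unless stated. The untreated levels of the wild-type arrays also differed more from each other than those of the Trp53-/- arrays (SD of the difference over all genes 0.476 against 0.224 on the log2 scale), and the wild-type arrays were scanned apart from the Trp53-/- arrays, so that in the untreated comparison scan and genotype cannot be told apart. The same holds for sex, since in untreated cells Eif2s3y was lower in Trp53-/- than in wild-type cells by a log2 difference of -2.58 (limma q = 0.00934) and Ddx3y by -2.03.

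The labelled cell type was checked against its markers. All 12 neural progenitor markers were tested, and their summed level, to which Fabp7 and Vim contributed most, lay between 17.1 and 17.6 (log2) in all 8 channels. Single markers moved with PJ34 in both directions: in wild-type cells 3 rose (Fabp7, Msi1 and Prom1) and 4 fell (Sox1, Hes1, Hes5 and Slc1a3), with Hes5, a Notch target, at -1.76, and in Trp53-/- cells 2 rose and 3 fell. At the same threshold, q below 0.05, 13.6% of all genes rose and 11.3% fell in wild-type cells, and 12.8% and 10.5% in Trp53-/- cells. Of the markers of other sources, only 2 of 7 for meninges and fibroblasts and 2 of 6 for microglia and endothelium passed the filter. Among them, Csf1r (microglia, 9.46 to 10.61 untreated) and Foxc1 (meninges, 8.53 to 8.99) were well above background in all 8 channels, while Pecam1 and Col1a2 were not. Among markers of the dorsal telencephalon only Emx2 and Lhx2, 2 of 7, were tested, and Emx1, Neurog1, Neurog2, Eomes and Tbr1 did not pass the filter.

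Promoter sequences are printed to show which members carry TCF/LEF letters, and probe sequences because probes of a gene differed. The first are the 250 bases before the transcription start in RefSeq (build GRCm38.p6). They are shown for Sp5, the member whose window held the most TCF/LEF core matches, and for Sfrp2, the member with the largest response to PJ34, and capitals mark a match to CTTTGAA, to the form CTTTGAT, to the form CTTTGTA or to the form CTTTGTT on either strand:
Sp5, chr2:70474673-70474922, plus strand: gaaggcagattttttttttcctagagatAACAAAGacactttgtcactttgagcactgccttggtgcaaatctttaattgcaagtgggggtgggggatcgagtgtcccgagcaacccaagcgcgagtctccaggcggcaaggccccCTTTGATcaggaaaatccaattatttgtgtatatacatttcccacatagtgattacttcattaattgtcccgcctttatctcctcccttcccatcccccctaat
Sfrp2, chr3:83766071-83766320, plus strand: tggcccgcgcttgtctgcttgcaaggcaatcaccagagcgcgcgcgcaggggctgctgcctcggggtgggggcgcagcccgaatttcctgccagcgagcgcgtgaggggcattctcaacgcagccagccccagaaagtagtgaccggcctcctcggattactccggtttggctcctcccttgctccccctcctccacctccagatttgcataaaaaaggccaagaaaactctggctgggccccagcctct
The Sp5 window held 2 matches, which began at -222 and -104 from the start, and the Sfrp2 window held 0. RefSeq windows were found for 8 of the 10 genes, 13 windows in all, with none in the table for Sfrp1 and Dkk3. A match stood in 3 of the 13 windows (23.1%), those of Sp5, 1 of 4 starts of Lef1 and 1 of 2 starts of Tcf7l2, while 14.8% of all 32851 windows of the same length held one. The windows of Axin2, Nkd1, Tcf7l1 and Ctnnb1 held none.

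The array probes themselves are given where probes of the same gene gave different values. The 60-base probes below have at least 1 reading frame without a stop codon, and they are printed 5′ to 3′ in lower case with no part marked:
Axin2, probe A_66_P134405, chr11:108803927-108803986 (mm9): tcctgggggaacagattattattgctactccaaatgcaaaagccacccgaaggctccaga
Tcf7l2, probe A_55_P2143724, chr19:55817272-55817331 (mm9): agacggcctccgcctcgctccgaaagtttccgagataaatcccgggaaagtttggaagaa
Tcf7l2, probe A_55_P2030160, chr19:55994029-55994088 (mm9): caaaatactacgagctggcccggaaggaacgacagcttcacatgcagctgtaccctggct
The other Axin2 probe, A_55_P2000783, lies at chr11:108812034-108812093 and the other Tcf7l2 probe, A_55_P2260094, at chr19:56006638-56006697 in the same build. Values of a gene come from the brightest of its kept probes, A_55_P2000783 for Axin2 and A_55_P2143724 for Tcf7l2.

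The main question was whether the Wnt genes responded to PJ34 and whether Trp53 mattered for it. By the criteria of the study (p and Storey q below 0.05 and more than 2-fold), 0 of the 9 tested genes were called in wild-type cells, where 0.499% of all genes were called, and 0 of 9 in Trp53-/- cells, where 0.361% were. With no limit on the fold, 2 of 9 were lower in wild-type cells (Sfrp2 and Nkd1; 11.3% of all genes were lower) and 2 of 9 were lower in Trp53-/- cells (Sfrp2 and Dkk3; 10.5% of all genes). None of the 9 was higher at that threshold in either genotype, against 13.6% and 12.8% of all genes. At an unadjusted p below 0.05 there were also 2 of 9 in each genotype, against 31.8% and 30.9% of all genes. The median log2 ratio of the 9 genes was 0.02 in wild-type and -0.12 in Trp53-/- cells, beside 0.03 in both for all genes. All tests were limma's moderated test over 20231 genes with 2 arrays, from 2 RNA preparations, for each genotype. The spread behind each p-value was pooled over both genotypes (2 residual degrees of freedom) and moderated by the spread of all genes (10.27 moderated degrees of freedom for ratios). Median centring in place of loess moved the median ratio of all genes to 0.46 in wild-type and 0.63 in Trp53-/- cells, and under it the sign of Nkd1 in wild-type (0.15) and of Sfrp2 in Trp53-/- cells (0.17) turned, while relative to those medians both stayed lower (-0.31 and -0.46).

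**Figure D1:**
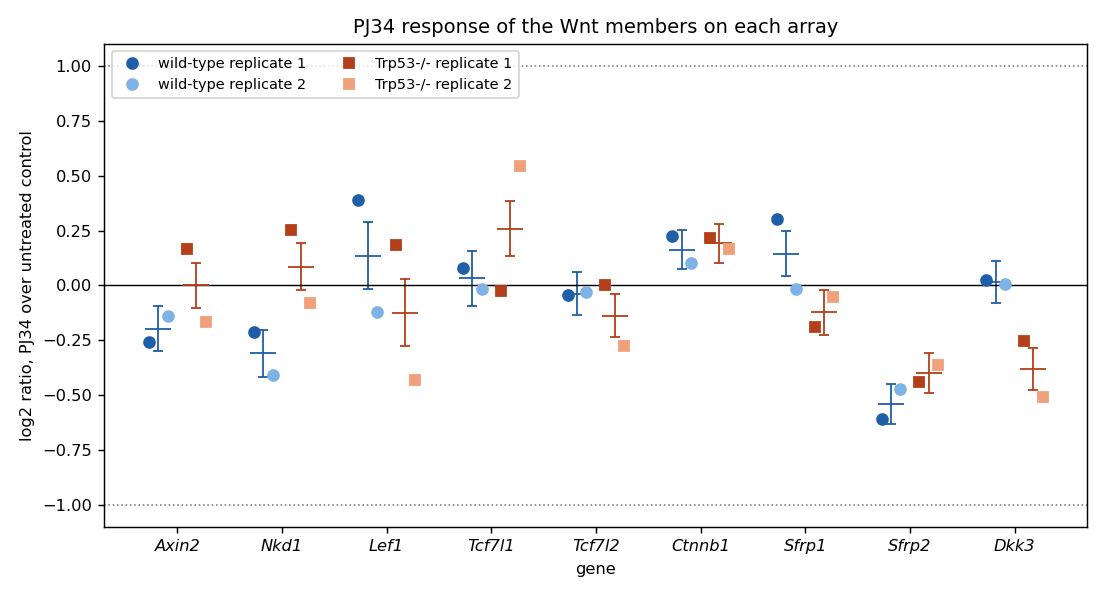
Log2 ratio of PJ34 over untreated control (vertical axis) for the 9 tested Wnt genes on each array; circles are wild-type arrays, squares Trp53-/- arrays, horizontal ticks with bars are the mean and its moderated SE per genotype (n = 2), and dotted lines mark 2-fold. Every point lies inside the dotted lines, and Sfrp2 is below 0 on all 4 arrays.

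Among the feedback genes, Axin2, the most widely used readout of canonical Wnt activity, did not pass the test. Its log2 ratio was -0.26 and -0.14 on the wild-type arrays and 0.16 and -0.17 on the Trp53-/- arrays. The wild-type values were both below 0 and the Trp53-/- values fell on either side of it. The mean was -0.20 in wild-type cells (SE 0.103, limma q = 0.112, 95% interval 0.744- to 1.02-fold) and 0.00 in Trp53-/- cells (SE 0.103, limma q = 0.489, 0.853- to 1.17-fold); without Trp53-/- replicate 2 the latter was 0.16. The probe A_66_P134405 printed above gave ratios of -0.02 and -0.21 in wild-type and 0.11 and -0.28 in Trp53-/- cells.

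Nkd1, an antagonist that binds Dishevelled, fell in wild-type cells. Its log2 ratio was -0.21 and -0.41 on the wild-type arrays, and 0.25 and -0.08 on the Trp53-/- arrays. Both wild-type ratios were below both Trp53-/- ratios. The wild-type mean of -0.31 is a 1.24-fold decrease (SE 0.106, limma q = 0.0362), and the Trp53-/- mean was 0.08 (SE 0.106, limma q = 0.306; 0.25 without replicate 2). The wild-type result passed the threshold narrowly: q was 0.071 with Benjamini-Hochberg adjustment, 0.0519 with no filter on dim probes, 0.074 with the scanner's own log ratios and 0.25 without wild-type replicate 2. Its dimmer probe, A_55_P2118694, was well above background on 1 array and gave a mean ratio of 0.09 in wild-type and -0.26 in Trp53-/- cells, the opposite directions.

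Sp5 had no level to compare. The log2 intensity of its probe was 6.11 and 6.18 in untreated wild-type, 6.04 and 5.87 in untreated Trp53-/-, and between 6.15 and 6.30 in the PJ34 channel, and none of the 8 values was well above background. The TCF/LEF letters in its promoter window therefore had no expression value beside them.

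The nuclear effectors did not pass the test in either genotype. Lef1, a TCF/LEF factor that is also a Wnt target, gave 0.39 and -0.12 on the wild-type arrays and 0.18 and -0.43 on the Trp53-/- arrays as log2 ratios. The replicates of each genotype lay on opposite sides of 0, and the probe was not well above background in either channel on wild-type replicate 2. Tcf7l1, which mainly represses targets, had ratios of 0.08 and -0.02 in wild-type and -0.03 and 0.54 in Trp53-/- cells. The high value was that of Trp53-/- replicate 2, the array with the sex mismatch, and the Trp53-/- mean of 0.26 (SE 0.126, limma q = 0.0939) was -0.03 without it. Tcf7l2 had ratios of -0.05 and -0.03 in wild-type and 0.00 and -0.28 in Trp53-/- cells. Its other probes gave means of -0.03 and -0.09 in wild-type and 0.11 and 0.07 in Trp53-/- cells, so in Trp53-/- cells the direction depended on the probe.

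Ctnnb1, which encodes beta-catenin, had ratios of 0.22 and 0.10 in wild-type and 0.22 and 0.17 in Trp53-/- cells. It was the only tested member above 0 on all 4 arrays (24.4% of all genes were). The means were 0.16 (SE 0.0898, limma q = 0.125) and 0.19 (limma q = 0.087), which did not pass, and the 95% intervals reached 1.29-fold and 1.31-fold at most.

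Of the 3 secreted members, Sfrp2 passed q below 0.05 in both genotypes, Dkk3 in Trp53-/- cells only and Sfrp1 in neither. Sfrp2, a frizzled-related protein that binds Wnt ligands outside the cell, fell in both genotypes. Its log2 ratio was -0.61 and -0.47 in wild-type and -0.44 and -0.36 in Trp53-/- cells. Both wild-type values were below both Trp53-/- values, and it was the only tested member below 0 on all 4 arrays (17.3% of all genes were). The means were a 1.45-fold decrease in wild-type (log2 -0.54, SE 0.0907, limma q = 0.00155) and a 1.32-fold decrease in Trp53-/- cells (log2 -0.40, SE 0.0907, limma q = 0.00785). Without Trp53-/- replicate 2 the Trp53-/- value was -0.44 with q = 0.0625, and without replicate 1 it was -0.36 with q = 0.081. Sfrp2 was well above background in all 8 channels.

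Sfrp1, of the same family, had ratios of 0.30 and -0.01 in wild-type and -0.19 and -0.05 in Trp53-/- cells. Neither mean passed the test (0.14, limma q = 0.188, and -0.12, limma q = 0.224). In wild-type cells its untreated channel was not well above background on either array, while the PJ34 channel was on both. The PJ34 mean over the measured untreated mean was 1.11-fold in wild-type cells. Its 95% interval, 0.944- to 1.295-fold, included no change, so an increase was not shown.

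Dkk3, a secreted protein of the Dickkopf family, fell in Trp53-/- cells. Its ratios were 0.02 and 0.01 in wild-type and -0.25 and -0.51 in Trp53-/- cells, and the genotypes did not overlap. The Trp53-/- mean of -0.38 is a 1.30-fold decrease (SE 0.096, limma q = 0.012), and the wild-type mean was 0.02 (limma q = 0.478). Without Trp53-/- replicate 2 the value was -0.25 with q = 0.236. Dkk3 was dim: its untreated channel was well above background on 1 of 2 arrays in each genotype.

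Markers of other cell types were also counted with PJ34 at q below 0.05. At that threshold 13.6% of all genes rose and 11.3% fell in wild-type cells, and 12.8% and 10.5% in Trp53-/- cells. Of 8 oligodendrocyte markers, 6 fell in Trp53-/- cells and 0 rose, with replicate 2, the array with the sex mismatch, included. Their summed level, to which Olig1 contributed most, was 15.5 to 15.7 in the untreated and 15.2 to 15.4 in the PJ34 channel (log2). All 8 were well above background on every array. In wild-type cells 3 of the 8 fell and 0 rose, and the summed level was 15.3 to 15.4 untreated and 15.2 to 15.7 with PJ34. Of 8 neuron markers 3 rose in wild-type cells (Nefl, Syt1 and Map2) and 2 in Trp53-/- cells, with 0 lower. Of 6 astrocyte markers 1 rose and 1 fell in wild-type cells. In Trp53-/- cells 2 rose (Gfap and Aldh1l1) and 1 fell (S100b, -0.63). The Gfap ratios were -0.0002 on Trp53-/- replicate 1 and 1.62 on replicate 2, the array with the sex mismatch, and those of Aldh1l1 were 0.18 and 0.56. The part of all these markers in the Wnt values was not tested.

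The difference between the genotypes was then tested, a comparison in which a dye bias of a probe cancels. At q below 0.05, 0 of the 9 genes differed, where 1.74% of all genes did, and 0 were called, where 0.47% were. At an unadjusted p below 0.05 there were 2 of 9, against 14.4% of all genes. These were Dkk3, whose wild-type ratio was higher by 0.40 (SE 0.136, 95% interval 0.09 to 0.70, limma q = 0.154), and Nkd1, whose wild-type ratio was lower, with a difference of -0.39 (SE 0.15, interval -0.73 to -0.06, limma q = 0.187). Ratios of the genotypes did not overlap for 4 of 9 genes (Nkd1, Sfrp1, Sfrp2 and Dkk3), against 45.2% of all genes. For Sfrp2 the difference was -0.14 with an interval from -0.42 to 0.14, and for Axin2 it was -0.20 with an interval from -0.52 to 0.13, so that neither a larger nor a smaller decrease in wild-type cells was shown.

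The untreated levels addressed whether the Wnt genes differed between genotypes before PJ34. Here 0 of 9 genes were called, against 3.78% of all genes, and 0 of 9 passed q below 0.05, against 7.52%. At an unadjusted p below 0.05 there were 2, Nkd1 and Sfrp1, against 23.3% of all genes. Untreated levels of the genotypes did not overlap for 7 of the 9 genes, beside 56.2% of all genes.

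**Figure D2:**
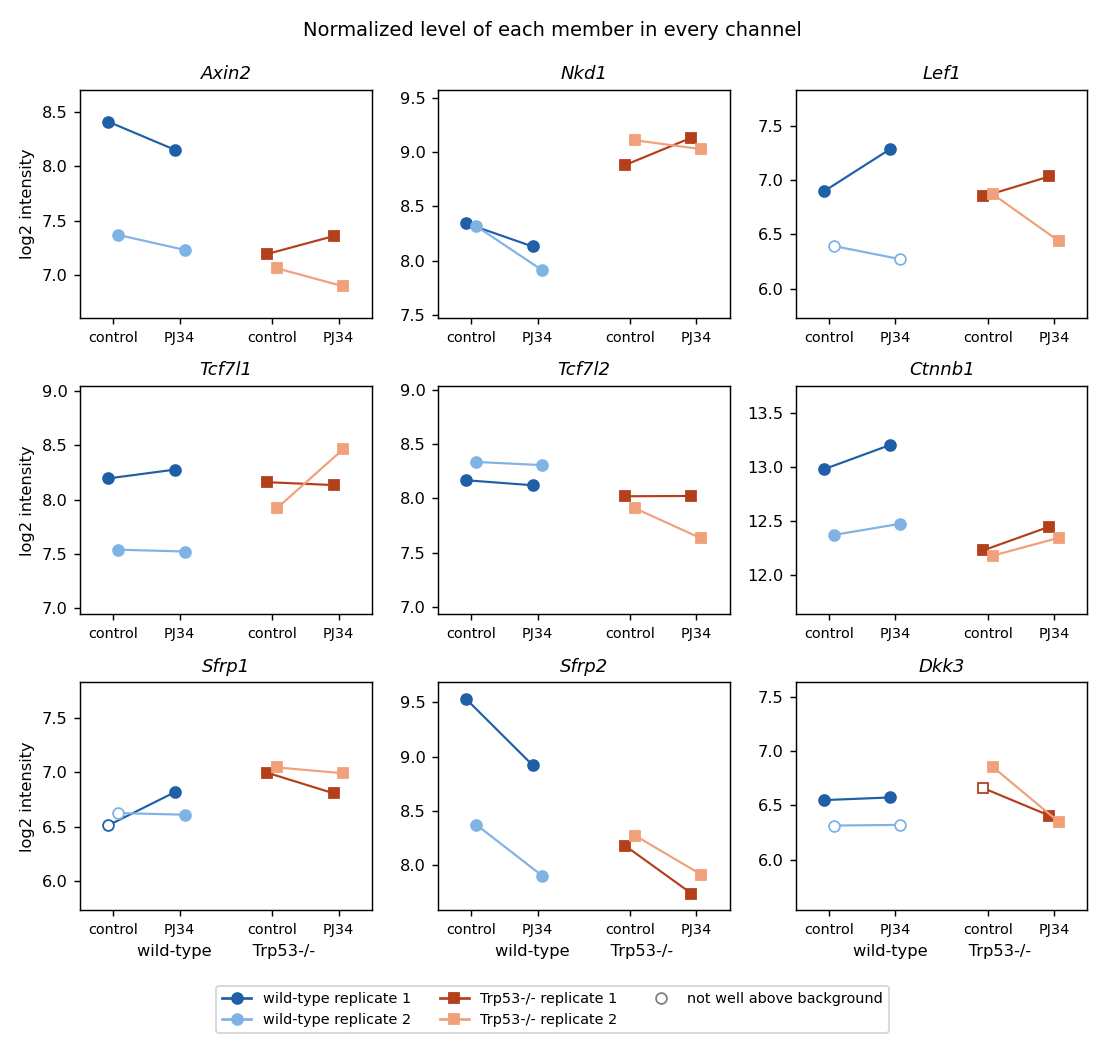
Normalized log2 intensity (vertical axis, the same span in each panel) of the 9 tested Wnt genes in the untreated control and PJ34 channels; each line is 1 array, circles are wild-type, squares Trp53-/-, and open symbols were not well above background. Wild-type replicate 1 lies above wild-type replicate 2 in both channels for Axin2, Ctnnb1 and Sfrp2, while Nkd1 is higher in all Trp53-/- channels than in any wild-type channel.

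Nkd1 had the smallest p of the 9 in untreated cells. Its log2 level was 8.34 and 8.32 in wild-type and 8.88 and 9.11 in Trp53-/- cells. Both Trp53-/- values were above both wild-type values, by a mean of 0.67 or 1.59-fold (SE 0.171, limma q = 0.0529, 95% interval 1.19- to 2.12-fold). With PJ34 the levels were 8.13 and 7.91 in wild-type and 9.13 and 9.03 in Trp53-/- cells. The q passed 0.05 under median centring of the control channel (0.0364), with the mean of probes (0.0487) and with a replicate block (0.0402). With each array left out in turn the Nkd1 difference lay between 0.55 and 0.78. Those fits leave 1 array in a genotype, so no test is read from them. Its dimmer probe also read higher in Trp53-/- cells, by 0.48, but was well above background in 1 untreated sample.

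Axin2, Sfrp2 and Ctnnb1 shared a pattern in untreated cells in which wild-type replicate 1 stood above the other 3 arrays. Axin2 read 8.41 and 7.37 in wild-type and 7.19 and 7.06 in Trp53-/- cells. Sfrp2 read 9.53 and 8.37 in wild-type and 8.18 and 8.27 in Trp53-/- cells. Ctnnb1 read 12.98 and 12.37 in wild-type and 12.23 and 12.18 in Trp53-/- cells. In each gene the gap between the wild-type replicates, 2.06-fold, 2.23-fold and 1.52-fold, was larger than the difference between the genotype means. The Trp53-/- mean was lower by 0.76 for Axin2 (limma q = 0.136), and the values for Sfrp2 and Ctnnb1 were -0.73 (limma q = 0.164) and -0.47 (limma q = 0.161). Without wild-type replicate 1 they were -0.24, -0.15 and -0.17, and without wild-type replicate 2 they were -1.29, -1.30 and -0.77. Over all genes, 18.5% differed by more than 1.5-fold between the untreated wild-type replicates and 1.72% between the Trp53-/- replicates.

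The probes of a gene did not all show the same untreated difference. For Axin2, the probe A_66_P134405 read 6.54 and 6.65 in wild-type and 6.59 and 6.87 in Trp53-/- cells, a difference of 0.13, and was well above background in 2 of the 4 untreated samples. The high wild-type replicate 1 of the brightest probe was not seen with it. For Tcf7l2, A_55_P2143724 read 8.17 and 8.34 in wild-type and 8.02 and 7.91 in Trp53-/- cells, a difference of -0.29, while A_55_P2030160 read 7.01 and 7.66 in wild-type and 7.91 and 8.21 in Trp53-/- cells, a difference of 0.73. In the first probe all wild-type values were above the Trp53-/- values, and in the second all were below. The remaining Tcf7l2 probe gave a difference of -0.07. The probes of Tcf7l2 thus spanned more than 2-fold, as did those of 5.12% of the 4924 genes with more than 1 probe kept, and the median span over those genes was 0.25 (log2). Which transcripts each probe detects is not given in the sources used here.

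**Figure D3:**
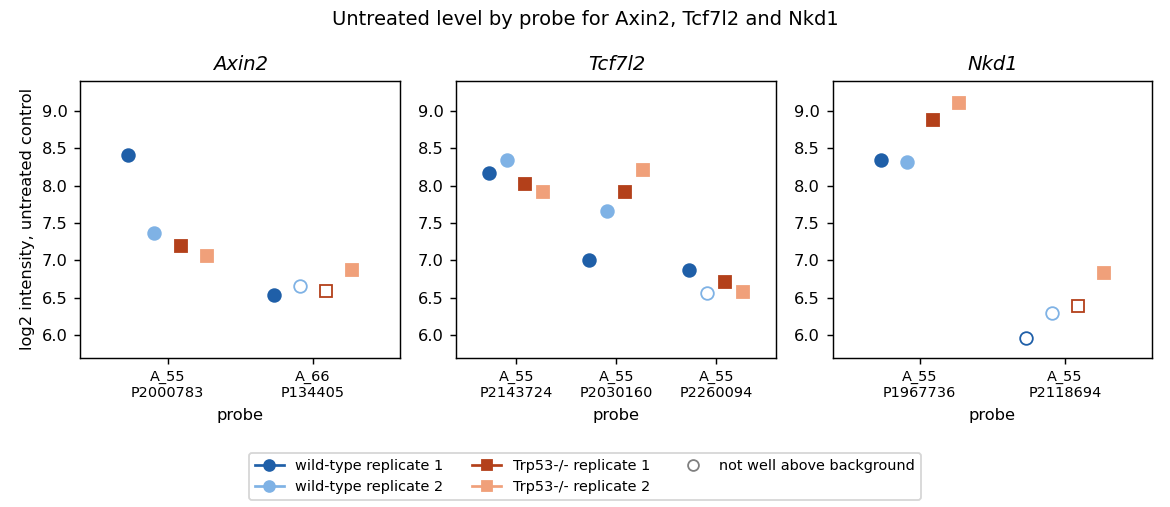
Log2 intensity in untreated cells (vertical axis) for each probe of Axin2, Tcf7l2 and Nkd1; circles are wild-type arrays, squares Trp53-/- arrays, and open symbols were not well above background. The order of the genotypes differs between the probes A_55_P2143724 and A_55_P2030160 of Tcf7l2.

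The other members, Sfrp1, Lef1, Tcf7l1 and Dkk3, also did not pass q below 0.05 in untreated cells. The genotypes did not overlap for Sfrp1 and Dkk3. Sfrp1 read 6.51 and 6.63 in wild-type and 6.997 and 7.05 in Trp53-/- cells, and neither wild-type value was well above background. The measured means differed by 1.37-fold, higher in Trp53-/- cells (95% interval 1.04- to 1.8-fold, limma q = 0.096), which did not pass. Lef1 read 6.90 and 6.39 in wild-type and 6.85 and 6.87 in Trp53-/- cells, and Tcf7l1 read 8.20 and 7.54 in wild-type and 8.16 and 7.92 in Trp53-/- cells. In both the wild-type values enclosed the Trp53-/- values. Dkk3 read 6.55 and 6.31 in wild-type and 6.66 and 6.85 in Trp53-/- cells (limma q = 0.186).

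Over the 8 channels, the level of Axin2 ran most closely with that of Ctnnb1 (Pearson r = 0.91) and Sfrp2 (r = 0.89) among the members. The 3 probes most like it among 20225 carried no gene symbol (r from 0.991 to 0.997). These correlations describe 8 channels of 4 arrays that share wild-type replicate 1 as their highest point.

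Other parts of the Wnt pathway were described from lists of 97 genes, of which 73 were tested. With PJ34, 11 rose and 9 fell in wild-type cells and 11 rose and 4 fell in Trp53-/- cells at q below 0.05, and 0 were called at more than 2-fold in either. Over all genes 13.6% rose and 11.3% fell in wild-type cells and 12.8% and 10.5% in Trp53-/- cells. The Trp53-/- counts include replicate 2, the array with the sex mismatch. Without it 1 Trp53-/- array is left, so no count is given. The median log2 ratio of the 73 genes was 0.02 and 0.03, beside 0.03 and 0.03 for all genes.

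Among ligands, 10 of 23 were tested. In wild-type cells 2 rose and 1 fell: Wnt5a, which signals mostly outside the beta-catenin route, rose by 0.41 (limma q = 0.00643; 0.0628 without wild-type replicate 1), and Wnt9a rose by 0.58 (limma q = 0.00196), at least 1.34-fold since its untreated channel was not well above background. Wnt9a passed the filter on dim probes only through the wild-type PJ34 channel, where it was higher, so its q is no independent support. In Trp53-/- cells 4 rose and 1 fell, led by Wnt5b (0.54, ratios 0.54 and 0.54) and Wnt7b (-0.50, ratios -0.44 and -0.56). Without Trp53-/- replicate 2 Wnt7b was at -0.44 and no longer passed q below 0.05.

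Among receptors, 15 of 18 were tested. In wild-type cells 2 rose and 2 fell, with Fzd1 at 0.30 (ratios 0.40 and 0.20) and Fzd2 at -0.31 (ratios -0.14 and -0.49). With the mean of its probes Fzd2 was at -0.13 (limma q = 0.204) and did not pass. In Trp53-/- cells 3 rose and 0 fell, with Ror2, a receptor for Wnt5a, at 0.41 and Fzd10 at 0.41. Ror2 missed the threshold without either Trp53-/- array (q = 0.0527 and 0.0832), and Fzd10 without replicate 1 (0.0909). Fzd10, a frizzled receptor, was the only one of the 73 genes whose response differed between genotypes at q below 0.05 (1.74% of all genes did). Its ratios were -0.25 and -0.12 in wild-type and 0.48 and 0.35 in Trp53-/- cells, a difference of -0.60 (SE 0.131, limma q = 0.0433). The directions were opposite on all arrays. Fzd1 had a difference of 0.54 (limma q = 0.0739).

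Among the 19 cytoplasmic genes, all tested, 4 rose and 3 fell in wild-type and 3 rose and 0 fell in Trp53-/- cells. Tnks2, tankyrase 2, a PARP family enzyme that marks axins for destruction, had ratios of 0.49 and 0.59 in wild-type and 0.53 and 0.40 in Trp53-/- cells. It was above 0 on all arrays and rose in both genotypes (limma q = 0.00156 and 0.00418), although q in Trp53-/- cells was 0.0564 without Trp53-/- replicate 1. Csnk1d, a casein kinase 1, had means of 0.48 and 0.43 (limma q = 0.00247 and 0.00502) from its brightest probe, and of 0.13 and 0.12 with the mean of its probes (q = 0.16 and 0.178). In Trp53-/- cells its q was 0.0549 and 0.0519 without replicate 1 or 2.

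Among the 17 nuclear cofactors, all tested, 1 rose and 3 fell in each genotype. Tle3, a Groucho corepressor that TCF/LEF factors recruit, had ratios of -0.91 and -0.55 in wild-type and -0.66 and -0.75 in Trp53-/- cells. It had the largest decrease of the 73 genes in both genotypes, by -0.73 (SE 0.105, limma q = 0.00071) and -0.70 (limma q = 0.00145), and its value was -0.66 without Trp53-/- replicate 2. Tle2, of the same family, rose by 0.53 in wild-type cells (limma q = 0.00343; 0.053 without wild-type replicate 2), and Ep300, a histone acetyltransferase, rose by 0.38 in Trp53-/- cells (limma q = 0.0248; 0.58 without replicate 2 and 0.18, which did not pass, without replicate 1). Of the inhibitors and other targets, 12 of 20 were tested, 2 passed in wild-type cells and 0 passed in Trp53-/- cells. Of those 2, Frzb was not well above background in the untreated channel and no fold could be bounded, and Tnfrsf19, at 0.29 (limma q = 0.0256), was at 0.16 (q = 0.106) with the mean of its probes.

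**Figure D4:**
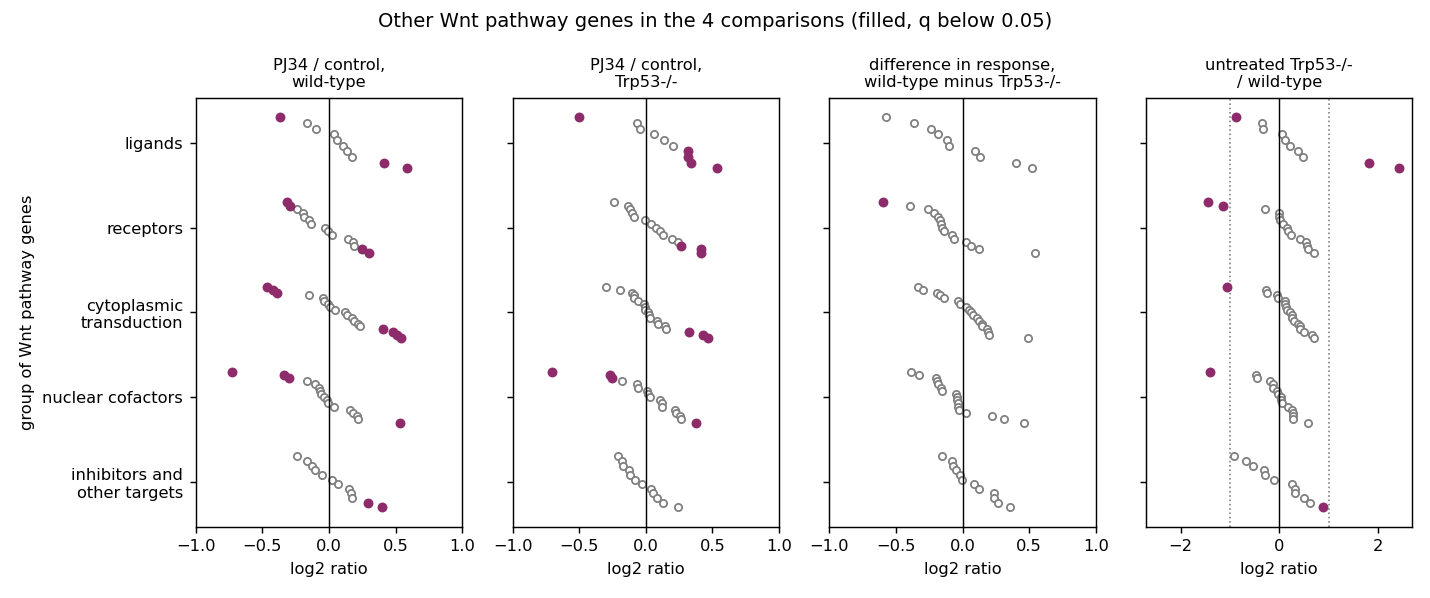
Log2 ratio (horizontal axes) of the 73 tested genes of the Wnt pathway outside the 10 members, by group (vertical axis), in the 4 comparisons; filled points passed q below 0.05 and dotted lines mark 2-fold. Points past the dotted lines appear in the untreated comparison, where 2 ligands are higher and 4 genes of other groups are lower in Trp53-/- cells.

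In untreated cells, 3 of the 73 genes were higher and 5 were lower in Trp53-/- cells at q below 0.05 (3.86% and 3.67% of all genes were), and 6 were called at more than 2-fold. Wnt10a read 5.80 and 5.99 in wild-type, not well above background, and 8.46 and 8.19 in Trp53-/- cells, at least 3.67-fold higher (limma q = 0.00808). That gene passed the filter on dim probes only through the Trp53-/- arrays, where it was higher, so its q is no independent support. Wnt7b read 7.89 and 9.29 in wild-type and 10.43 and 10.39 in Trp53-/- cells, a 3.53-fold difference (limma q = 0.0462). Its log2 difference of 1.82 was 1.12 without wild-type replicate 1 and 2.52 without replicate 2, and q was 0.083 with Benjamini-Hochberg adjustment and 0.0906 with no filter. Fzd10 (-1.44, limma q = 0.0255), the coreceptor Lrp5 (-1.14, q = 0.0238), the Dishevelled gene Dvl3 (-1.06, q = 0.028) and the beta-catenin cofactor Bcl9l (-1.41, q = 0.0256) were lower in Trp53-/- cells. With median centring of the control channel Fzd10 (0.0558), Lrp5 (0.0526) and Dvl3 (0.0591) missed the q threshold. Below 2-fold, the ligand gene Wnt1, named after its value was seen as the remaining lower gene, was at -0.88 (limma q = 0.0352), Sfrp5 was higher by 0.89 (limma q = 0.0293; 0.0526 with Benjamini-Hochberg adjustment), and Ccnd1, a cell cycle target of beta-catenin, was at 0.62 (limma q = 0.0677) and did not pass. Leaving out either Trp53-/- array left 0 of all 20231 genes called in this comparison, these included.

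In the same comparison, markers of other cells were counted, where 3.86% of all genes were higher and 3.67% lower at q below 0.05. Of 8 neuron markers 2 were higher and 1 lower at q below 0.05, of 6 astrocyte markers 3 were higher (Gfap 2.38 and S100b 1.90 on the log2 scale, with Aqp4), and of 8 oligodendrocyte markers 2 were higher (Mbp among them, by 1.99). The summed astrocyte level was 14.9 to 15.0 in wild-type and 15.1 to 15.3 in Trp53-/- cells, and the summed oligodendrocyte level 15.3 to 15.4 and 15.5 to 15.7 (log2). The summed neuron level went the other way, with 12.90 to 13.35 in wild-type and 12.74 to 12.81 in Trp53-/- cells. Of the dorsal telencephalon markers Lhx2 was lower (-1.02) and Emx2, at -0.23 (limma q = 0.359), did not pass. The summed dorsal level was 10.95 to 11.38 in wild-type and 10.08 to 10.41 in Trp53-/- cells. A ventral telencephalon marker, Gsx1, was lower as well (-0.97, limma q = 0.0311), as 1 of 4 tested ventral markers. The summed ventral level was 11.57 to 12.07 in wild-type and 11.50 to 11.84 in Trp53-/- cells. In bulk RNA, fewer cells of a type and less RNA per cell cannot be told apart, and the part of these markers in the Wnt values was not tested.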

How the data were processed

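Dual-channel Agilent SurePrint G3 Mouse GE arrays were analysed, 2 for each genotype, each on a slide of its own. The authors deposited scanner files of Agilent Feature Extraction 10.7.3.1 (named in the submitters' processing notes), which hold intensity values for each spot and log10 ratios computed by the scanner software. Per the labels, Cy5 was PJ34-treated RNA and Cy3 was untreated RNA on every array. A deposited table of normalized log2 values for the whole series was not used, because its column names match no label.

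From the intensities, mean signals were background-corrected with normexp (offset 50) in limma 3.58.1 (R 4.3.3), loess-normalized within arrays and, for levels, Aquantile-normalized between arrays. Spots flagged as outliers were left out (228 to 276 per array), as were control spots. A probe was kept when well above background in 1 channel on all arrays of 1 genotype (27043 probes, 48.6%), a gene was read from its brightest kept probe, and 47.2% of probes were named through RefSeq. A mean per genotype was fitted to all 4 arrays with lmFit and eBayes (moderated degrees of freedom 10.27 for ratios and 6.07 for levels), with Storey q over 20231 genes. Calls needed p and q below 0.05 and more than 2-fold, as in the study's methods. In untreated comparisons only the Cy3 channel was used. The scripts were tested on simulated data. The number of arrays limits the precision. Wild-type replicate 1 was read with another grid file than the other 3.

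The members, the pathway lists and the marker lists were chosen with earlier results of these data known. All members were to be named, with the called genes of each pathway list, or else the 2 of smallest p in a comparison where the list had a q below 0.05, and the 3 genes most like Axin2. Where every array of a group left a gene short of well above background, only a bound is given. It comes from the gene's own signal or, where higher, the lowest signal well above background on each array. For Sfrp1 this bound equalled the measured fold, which is given as such. Alternatives covered background, normalization, filter, probe summary, variance trend, adjustment, replicate block and each array left out. Promoter windows come from RefSeq (GRCm38.p6) and probe positions from the files (mm9), and no coordinates were converted. The values of 1 marker gene are not reported here.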

Additional observations from a re-analysis of the deposited data

Results flagged for a closer look

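The response of Dkk3 to PJ34 had opposite signs in the genotypes on all 4 arrays, with a difference (wild-type minus Trp53-/-) of 0.40 on the log2 scale. The test of that difference gave q = 0.154 in limma, which did not pass, and the wild-type ratios were 0.02 and 0.01. The response of Fzd10, a receptor of the pathway lists, differed between genotypes by -0.60 and passed the test of the difference (limma q = 0.0433). It did not pass with Benjamini-Hochberg adjustment (0.0591), no background correction (0.0727), an offset of 16 (0.134), median centring (0.246) or the scanner's log ratios (0.258), or without any 1 of wild-type replicate 1 (0.0862), Trp53-/- replicate 1 (0.14) and Trp53-/- replicate 2 (0.079), and it passed without wild-type replicate 2 (0.0249).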

How the results depend on the processing

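Median centring in place of loess moved the median log2 ratio of all genes to 0.46 in wild-type and 0.63 in Trp53-/- cells, and the counts of the 9 genes at q below 0.05 became 3 higher and 0 lower (wild-type) and 4 higher, 1 of them called, and 0 lower (Trp53-/-), against 0 higher and 2 lower in each. Relative to those medians Sfrp2 stayed lower (-0.52 and -0.46), Nkd1 was at -0.31 in wild-type and Dkk3 at -0.94 in Trp53-/- cells. As given, the values that changed sign there were, in wild-type, Axin2 0.16, Tcf7l2 0.44, Nkd1 0.15 and Fzd2 0.25, and in Trp53-/- cells Axin2 0.32, Lef1 0.061, Tcf7l2 0.41, Sfrp1 0.14, Sfrp2 0.17, Wnt7b 0.31 and Tle3 0.14. Axin2 in Trp53-/- cells was 0.011 with scaling between arrays. With the mean of probes, Tcf7l2 was 0.016 (Trp53-/- ratio), -0.071 (difference) and 0.12 (untreated).

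The count of lower genes was 1 in wild-type cells with the scanner's log ratios, with no filter and with Benjamini-Hochberg adjustment, and 1 in Trp53-/- cells with the strict filter. The untreated count of higher genes was 1 with median centring of the control channel, with the mean of probes and with the replicate block, where 1 lower gene (Axin2) also passed. Same-numbered ratios deviated with r = -0.178, and control levels with r = 0.0841, so the replicate numbers were not taken as pairs; the replicate block changed no other count of the 9 genes. With the crossed pairing, chosen after seeing the data, 1 gene was higher in Trp53-/- cells.

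Leaving out each array gave 1 to 2 lower genes in wild-type cells, 0 to 2 lower and 0 to 1 higher in Trp53-/- cells, and, untreated, 0 to 5 higher, 0 to 3 lower and 0 to 2 called lower. For the genes with a change of sign, the lowest and highest values were, in wild-type, -0.12 and 0.39 (Lef1), -0.017 and 0.081 (Tcf7l1) and -0.015 and 0.30 (Sfrp1); in Trp53-/-, -0.165 and 0.16 (Axin2), -0.43 and 0.18 (Lef1), -0.026 and 0.54 (Tcf7l1), -0.277 and 0.0026 (Tcf7l2) and -0.082 and 0.25 (Nkd1); in the difference, -0.051 and 0.57 (Lef1), -0.51 and 0.058 (Tcf7l1), -0.040 and 0.24 (Tcf7l2) and -0.089 and 0.032 (Ctnnb1); and untreated, -0.040 and 0.47 (Lef1) and -0.15 and 0.50 (Tcf7l1). With 1 array left in a genotype, that array was assumed to vary like the others. The untreated counts moved with those of all genes, of which 3.86% were higher and 3.67% lower with all arrays kept. Both shares were larger when 1 wild-type array was left out, and no gene passed when 1 Trp53-/- array was left out. The leave-out counts are therefore not read as results about the Wnt genes. The causes were not tested.

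Over all genes, 101 were called in wild-type cells, 73 in Trp53-/- cells, 95 for the difference and 764 untreated. In the same order, the scanner's log ratios gave 561, 527 and 0 for the ratios, and an offset of 16 gave 166, 129, 39 and 1152. Median centring gave 1182 in wild-type and 3411 in Trp53-/- cells. Without wild-type replicate 2 there were 1555 untreated, without Trp53-/- replicate 1 there were 165 in Trp53-/- cells, 163 for the difference and 0 untreated, and without Trp53-/- replicate 2 there were 0 untreated. Lef1, Sfrp1 and Dkk3 were limited by signal near background.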
